A study of Mus musculus with 11 samples.

Results

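Ipp, Efcab7, Agtrap, Crocc and Iqcc are 5 genes of mouse chromosome 4 chosen by their measured levels, which differed in both kinds of induced pluripotent stem cell from those in embryonic stem cells. All probe sets annotated to 1 of these symbols were taken, which gave 5 of 18193 measured genes and 6 of the 45101 probe sets on the array, 2 of them for Agtrap and 1 for each other gene. Values are log2 RMA expression values, so a difference of 1 is a doubling of signal. The arrays measured total RNA of ViPSC, induced cells of ventricular myocyte origin (n = 3 arrays), and of TiPSC, of tail tip fibroblast origin (n = 3). They also measured the kinds of cell these came from, VM for ventricular myocytes and TTF for tail tip fibroblasts, both of pups at postnatal day 1 (1 array each, no replicate), and genetically matched mouse embryonic stem cells, mESC (n = 3). All cells had a mixed C57/Bl and BlackSwiss background, and no group is said to carry an engineered allele in the labels. The pluripotent cells grew with LIF on irradiated fibroblast feeders, which were reduced by differential plating. The labels give neither the number of lines or clones per group nor the independence of its cultures, so p-values measure only the spread between these arrays, and a difference between lines cannot be told apart from one between kinds of cell.

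Ipp takes its name from the intracisternal A particle, an endogenous retrovirus of the mouse whose long terminal repeat can serve as its promoter in placenta, and it encodes a protein with kelch repeats. Crocc encodes rootletin, the main protein of the ciliary rootlet and a part of the linker between centrioles. Efcab7 encodes an EF-hand protein that holds the EVC complex, a positive regulator of Hedgehog signalling, at the base of the cilium. Agtrap encodes a membrane protein that binds the type 1 angiotensin II receptor and promotes its internalization. Iqcc encodes a protein with an IQ motif, a calmodulin-binding sequence, whose function is not well known. Embryonic stem cell lines of mixed background can differ by inherited variants as well as by cell state, and expression arrays read both through the same probes.

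The promoter of Ipp, the gene with the largest difference, is shown with those of Agtrap, which was also lower in induced cells, and Iqcc, which was higher. The sequences are RefSeq's for build GRCm38.p6, which is of the C57BL/6J strain, and run from 250 bases before a transcript start to 50 after it, 5′ to 3′ on the gene's strand. Capitals mark an E-box, CACGTG, and a GC box, GGGCGG or its reverse complement CCGCCC; no matches to the 2 motifs overlapped.
Ipp: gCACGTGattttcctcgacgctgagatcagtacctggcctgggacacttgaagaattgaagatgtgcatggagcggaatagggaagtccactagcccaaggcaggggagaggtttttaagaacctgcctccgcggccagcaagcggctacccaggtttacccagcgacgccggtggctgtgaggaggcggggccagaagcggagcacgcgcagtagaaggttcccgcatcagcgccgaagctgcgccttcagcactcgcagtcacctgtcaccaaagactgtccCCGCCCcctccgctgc
Agtrap: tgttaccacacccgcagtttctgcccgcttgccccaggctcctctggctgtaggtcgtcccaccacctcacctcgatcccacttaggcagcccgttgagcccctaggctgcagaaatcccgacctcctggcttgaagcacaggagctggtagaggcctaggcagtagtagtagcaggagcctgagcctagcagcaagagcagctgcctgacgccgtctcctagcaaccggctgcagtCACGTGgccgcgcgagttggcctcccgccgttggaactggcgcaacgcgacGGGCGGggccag
Iqcc: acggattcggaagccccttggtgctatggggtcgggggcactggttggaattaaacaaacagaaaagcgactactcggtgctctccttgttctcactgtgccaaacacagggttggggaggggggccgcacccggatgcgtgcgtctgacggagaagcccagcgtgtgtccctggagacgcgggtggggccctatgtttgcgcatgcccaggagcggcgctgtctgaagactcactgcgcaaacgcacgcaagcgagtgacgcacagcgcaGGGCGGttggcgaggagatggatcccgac
The Ipp sequence lies at chr4:116507299-116507598 on the plus strand, Agtrap's at chr4:148088015-148088314 on the minus strand and Iqcc's at chr4:129619044-129619343 on the minus strand. Ipp and Agtrap each held 1 E-box, beginning at base 2 and base 238 of the sequence, and Iqcc held none. Crocc, which was also higher in induced cells, has 2 promoters in the table, of which 1 held an E-box at base 173 and the other none. Of all 32851 promoters of 300 bases 7.15% held this motif. Each of the 3 printed sequences held 1 GC box, counting either strand, and 35.7% of all promoters held at least 1. These 3 held 21, 20 and 25 CpG dinucleotides in the order printed, against a median of 7 over all promoters. The table has a promoter for 4 of the 5 genes; those of Crocc are not printed, and Efcab7 is named only. Retroviral sequence was not searched for, and the cells' own sequence, which may differ from C57BL/6J, was not analysed here.

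Ipp was low in all 6 induced arrays and in both source arrays and high in all 3 mESC arrays. Its log2 level was 5.95, 5.87 and 6.11 in ViPSC, 5.97, 5.75 and 5.83 in TiPSC, 4.89 in VM, 5.38 in TTF, and 9.95, 10.63 and 10.64 in mESC. No induced or source array came near the mESC arrays: the gap between the highest induced and the lowest mESC array was 3.84 log2 units, against a range of 0.361 within the 6 induced arrays and of 0.683 within mESC. The mean was 5.98 ± 0.12 in ViPSC and 5.85 ± 0.11 in TiPSC, against 10.41 ± 0.39 in mESC (SD, n = 3 each). This is a difference of −4.43 for ViPSC and −4.56 for TiPSC, or 21.5-fold and 23.6-fold lower than mESC. By size it ranked 2 and 3 among the differences of the 45037 probe sets that are not array controls. These differences chose the gene and are given without a test; both share the mESC arrays. From low to high the order was VM, TTF, TiPSC, ViPSC and mESC, and ViPSC and TiPSC overlapped. In such bulk RNA, fewer cells with a transcript and less of it per cell cannot be told apart.

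**Figure D1:**
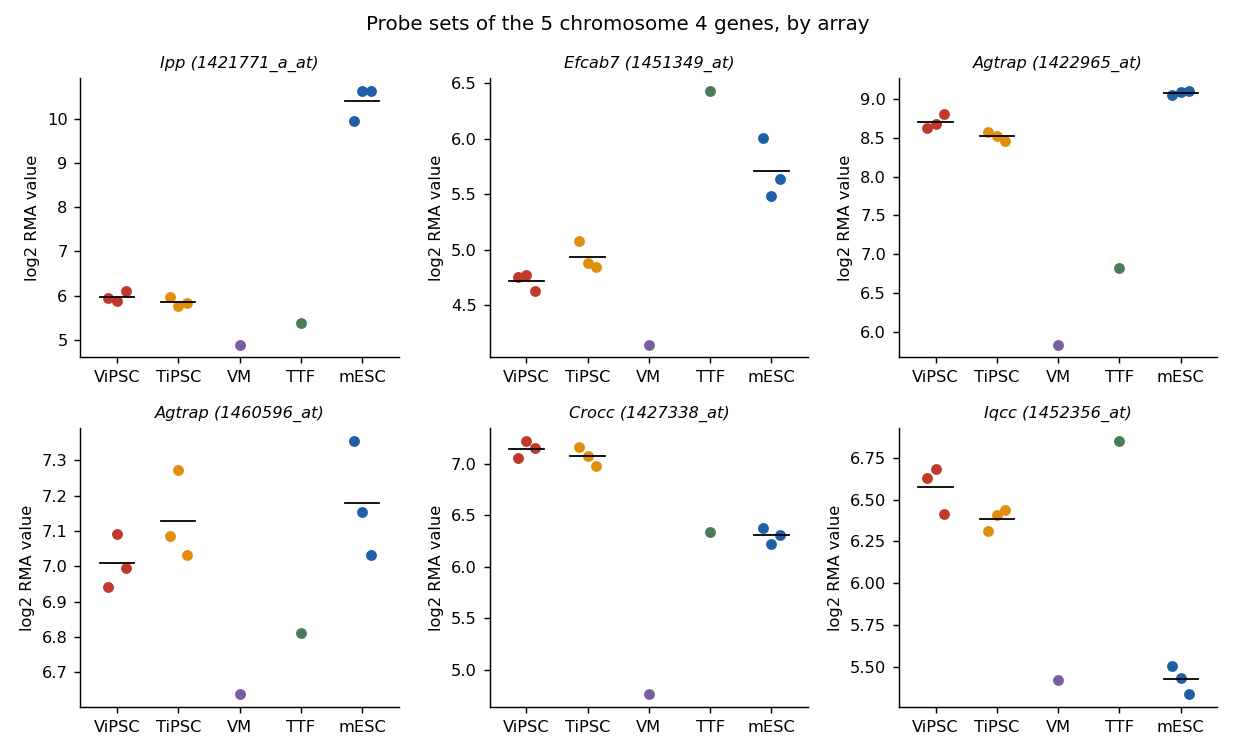
Log2 RMA values (y axes, which differ between panels and do not start at 0) of the 6 probe sets of Ipp, Efcab7, Agtrap, Crocc and Iqcc in ViPSC, TiPSC, VM, TTF and mESC; points are arrays and lines are means of 3 arrays. Ipp lies between 4.89 and 6.11 in the induced and source arrays and at 9.95 or above in mESC, while for Efcab7, Crocc and Iqcc the VM and TTF arrays lie far apart.

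Efcab7, the cilium-base tether, was also lower in induced cells, but its TTF array was the highest of all. It was at 4.75, 4.77 and 4.63 in ViPSC, 5.08, 4.88 and 4.84 in TiPSC, 4.14 in VM, 6.43 in TTF, and 6.01, 5.49 and 5.64 in mESC. The induced arrays all lay below the mESC arrays, with a gap of 0.411, less than the range of 0.520 within mESC. The difference from mESC was −0.99 for ViPSC and −0.78 for TiPSC. The TTF array was 0.72 above the mESC mean, so TiPSC stood below the fibroblast array (difference −1.50), whereas ViPSC stood above the myocyte array (difference 0.57). The labels do not say that these arrays are of the cultures that were reprogrammed. The order was VM, ViPSC, TiPSC, mESC and TTF. Among all probe sets the ViPSC and TiPSC means were at percentiles 50.5 and 53.5, and the VM array at 38.3. No detection calls were used, so whether the transcript was detected at these levels was not tested.

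Agtrap, the angiotensin receptor-associated protein, differed from mESC in 1 of its 2 probe sets. Probe set 1422965_at was at 8.63, 8.67 and 8.81 in ViPSC, 8.57, 8.52 and 8.46 in TiPSC, 5.84 in VM, 6.82 in TTF, and 9.05, 9.09 and 9.10 in mESC. All induced arrays lay below all mESC arrays and far above the source arrays. The difference from mESC was −0.37 for ViPSC and −0.56 for TiPSC, small beside the −3.24 of VM and the −2.26 of TTF. Probe set 1460596_at was at 6.94, 7.09 and 6.99 in ViPSC, 7.08, 7.27 and 7.03 in TiPSC, 6.64 in VM, 6.81 in TTF, and 7.35, 7.15 and 7.03 in mESC. Here the induced and mESC arrays overlapped, with differences of −0.17 for ViPSC and −0.050 for TiPSC, and that of TiPSC was 0.038 without mESC 1. The lower Agtrap signal of induced cells thus rests on 1 probe set.

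Crocc, which encodes rootletin, was higher in induced cells than in any other array. It was at 7.06, 7.22 and 7.15 in ViPSC, 7.16, 7.08 and 6.98 in TiPSC, 4.77 in VM, 6.34 in TTF, and 6.38, 6.22 and 6.31 in mESC. The gap between induced and mESC arrays was 0.595, against ranges of 0.245 and 0.161 within them. The difference from mESC was 0.84 for ViPSC and 0.76 for TiPSC. The TTF array lay within the mESC arrays, 0.037 above their mean, and the VM array was the lowest (difference −1.54).

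Iqcc, the IQ motif gene, was higher in induced cells than in mESC and highest in the fibroblasts. It was at 6.63, 6.68 and 6.42 in ViPSC, 6.31, 6.41 and 6.44 in TiPSC, 5.42 in VM, 6.85 in TTF, and 5.51, 5.43 and 5.33 in mESC. The gap between induced and mESC arrays was 0.808, more than the range within either. The difference from mESC was 1.15 for ViPSC and 0.96 for TiPSC, a level 2.22 and 1.95 times that of mESC. The VM array lay within the mESC arrays, and the TTF array was 1.43 above their mean.

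Induced and mESC arrays did not overlap for 5 of the 6 probe sets, against 3.54% of all probe sets, and that is what the choice of members fixed. In a limma fit of the 9 pluripotent arrays, with Benjamini-Hochberg adjustment over 45037 probe sets and a threshold of 0.05, 1.22% of all probe sets passed for ViPSC against mESC and 0.213% for TiPSC against mESC. In both comparisons and in the same direction 27 probe sets passed, 0.0600% of all, 3 of them members (Ipp, Crocc and Iqcc); without mESC 1 the count over all probe sets was 2021. These contrasts chose the members, so nothing is read from their count or from that of chromosome 4. With 1 probe set per gene, 23 of 18193 genes passed in this way (0.126%), and 2 of them were other genes of chromosome 4: Cdkn2a, the locus of the cell cycle inhibitors p16Ink4a and p19Arf, and 9930104L06Rik. Cdkn2a was at 7.80 ± 0.061 in ViPSC, 7.49 ± 0.11 in TiPSC, 3.94 in VM, 11.71 in TTF and 8.52 ± 0.30 in mESC. The transcript 9930104L06Rik was at 5.93 ± 0.20 in ViPSC, 5.96 ± 0.041 in TiPSC, 5.00 in VM, 5.56 in TTF and 5.05 ± 0.18 in mESC (SD, n = 3). Nearest inside the threshold was Agtrap, with the differences given above. Nearest outside it, among chromosome 4 genes that moved the same way in both, were Zkscan16 (−0.42 for ViPSC, −0.44 for TiPSC) and Szrd1 (−0.38 and −0.49).

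ViPSC against TiPSC asks whether the 5 genes depend on the cell of origin or line among induced cells, a contrast that did not choose them, although it uses the same induced arrays. The choice asked for a difference from mESC in both induced groups, which can favour likeness between them. None of the 6 probe sets passed in the limma fit, where 3.91% of all probe sets did, and none did without any 1 of the 9 arrays, although the 1761 probe sets behind that share then became 321 to 3086. For 6 probe sets a count of 0 is near that share, so nothing is read from it. Ipp differed by 0.13 ± 0.17 (SE; adjusted p = 0.778), with a 95% interval of −0.26 to 0.52, which lies far from the 4.43 log2 units between ViPSC and mESC. Efcab7 differed by −0.21 ± 0.13 (adjusted p = 0.462), with an interval of −0.51 to 0.085. Agtrap differed by 0.18 ± 0.079 in probe set 1422965_at (adjusted p = 0.256; interval 0.0070 to 0.36) and by −0.12 ± 0.11 in 1460596_at (adjusted p = 0.631; interval −0.36 to 0.12). Crocc differed by 0.073 ± 0.086 (adjusted p = 0.739; interval −0.12 to 0.27) and Iqcc by 0.19 ± 0.094 (adjusted p = 0.335; interval −0.021 to 0.40). At an unadjusted p under 0.05 there was 1 probe set, Agtrap 1422965_at, against 18.0% of all. The 3 ViPSC arrays did not overlap the 3 TiPSC arrays for Efcab7 and Agtrap 1422965_at, 2 of 6, where 28.2% of all probe sets did not overlap. The intervals are those of single probe sets and allow differences of up to 0.52 log2 units in size, so they do not show that the induced groups were equal.

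**Figure D2:**
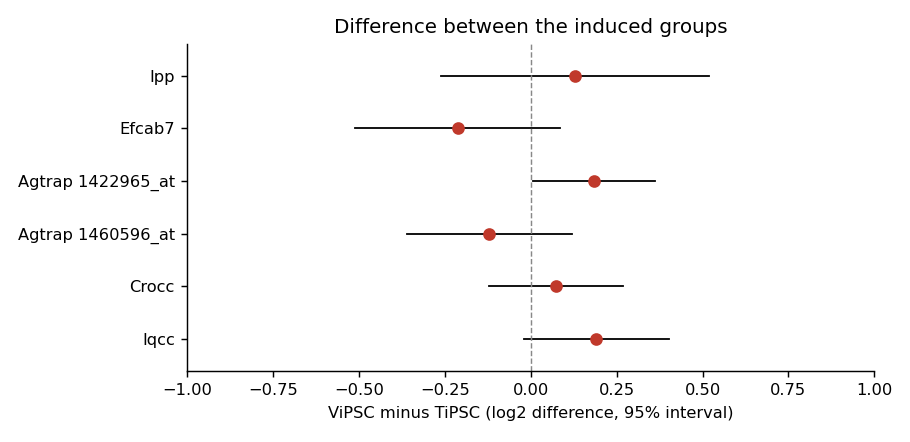
Difference between ViPSC and TiPSC on the log2 scale (x axis) for the 6 probe sets, with points for the estimate and lines for the 95% interval of the limma fit. All 6 estimates lie between −0.21 and 0.19, and 5 of the 6 intervals cross 0.

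VM and TTF against mESC asks on which side the kinds of cell that were reprogrammed stood; these arrays did not choose the members, and with 1 array each there is no test. A probe set counted when both source arrays lay beyond the midpoint of the mESC mean and the mean of the 6 induced arrays, towards the induced arrays. That held for Ipp and both Agtrap probe sets, 3 of 6, but for Agtrap 1460596_at the induced and mESC arrays overlapped on both sides of the midpoint (7.12), so that its source arrays had no distinct induced side. It held for 22.2% of the 27 probe sets called against mESC in both induced groups (31.2% of the 16 that were lower and 9.09% of the 11 that were higher in induced cells), and for 35.4% of all probe sets. Without mESC 1 the 6 of 27 became 934 of 2021. For Ipp the midpoint was 8.16, and the VM and TTF arrays were 5.52 and 5.03 below the mESC mean (differences −5.52 and −5.03). Of the others, Efcab7 had its VM array and Iqcc its TTF array on the induced side, and Crocc neither. For 6 probe sets a count of 3 is near the 35.4% of all, and the 27 called probe sets include Ipp, Crocc and Iqcc. So nothing is read from that count. As a description, Ipp and, by probe set 1422965_at alone, Agtrap had both source arrays on the induced side. In that Agtrap probe set the source arrays lay well below the induced arrays. In these arrays cell type and inherited variants cannot be told apart as sources of a difference from mESC.

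The genes beside the members on chromosome 4 were counted in the same limma fit. In that fit of all 9 arrays Ipp, Crocc and Iqcc passed against mESC in both induced groups, and Efcab7 and Agtrap did not. In the RefSeq gene order the members were Efcab7, Ipp, Iqcc, Crocc and Agtrap, with 116, 176, 184 and 60 other measured genes between them. Of the 10 measured genes on either side of each member, 100 in all, 0 were called against mESC in both induced groups by limma, where 0.0770% of all genes were; at an unadjusted p under 0.05 in both there were 6, against 4.77% of all genes. Both counts are near these shares, so nothing is read from them. Without mESC 1 the count was 9 of 100, against 6.56% of all genes. These 9 were Kank4, Pgm1 and Ror1 near Efcab7, Ccdc28b near Iqcc, Necap2 and Szrd1 near Crocc, and Zfp982, Zfp979 and Plod1 near Agtrap, and none was near Ipp. The 20 neighbours of Ipp differed from mESC by −0.20 to 0.43 in ViPSC and −0.34 to 0.31 in TiPSC. Ipp itself, at −4.43 and −4.56, stood far outside these ranges. Its nearest neighbours were Mast2, a microtubule-associated kinase (−0.16 for ViPSC, −0.34 for TiPSC), and Tmem69, a membrane protein gene (0.086 and 0.31). Around Agtrap, the zinc finger gene Zfp979 was further from mESC than the member, at −1.35 for ViPSC and −1.31 for TiPSC. Next to Efcab7, Pgm1, which encodes a phosphoglucomutase, was at 0.44 and 0.48, opposite in sign to the member. Next to Iqcc, Ccdc28b was at 0.85 and 0.49 and Dcdc2b at 0.043 and −0.053. Over the 100 neighbours the median was 0.033 for ViPSC and 0.047 for TiPSC. Between ViPSC and TiPSC 3 of the 100 passed, against 4.92% of all genes: the tetraspanin Tspan1 near Ipp (0.60 ± 0.13, adjusted p = 0.0396), the adenylate kinase Ak4 near Efcab7 (1.41 ± 0.14, adjusted p = 0.00275) and the ephrin receptor Epha2 near Crocc (−0.58 ± 0.11, adjusted p = 0.0204; limma, SE, n = 3 per group).

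**Figure D3:**
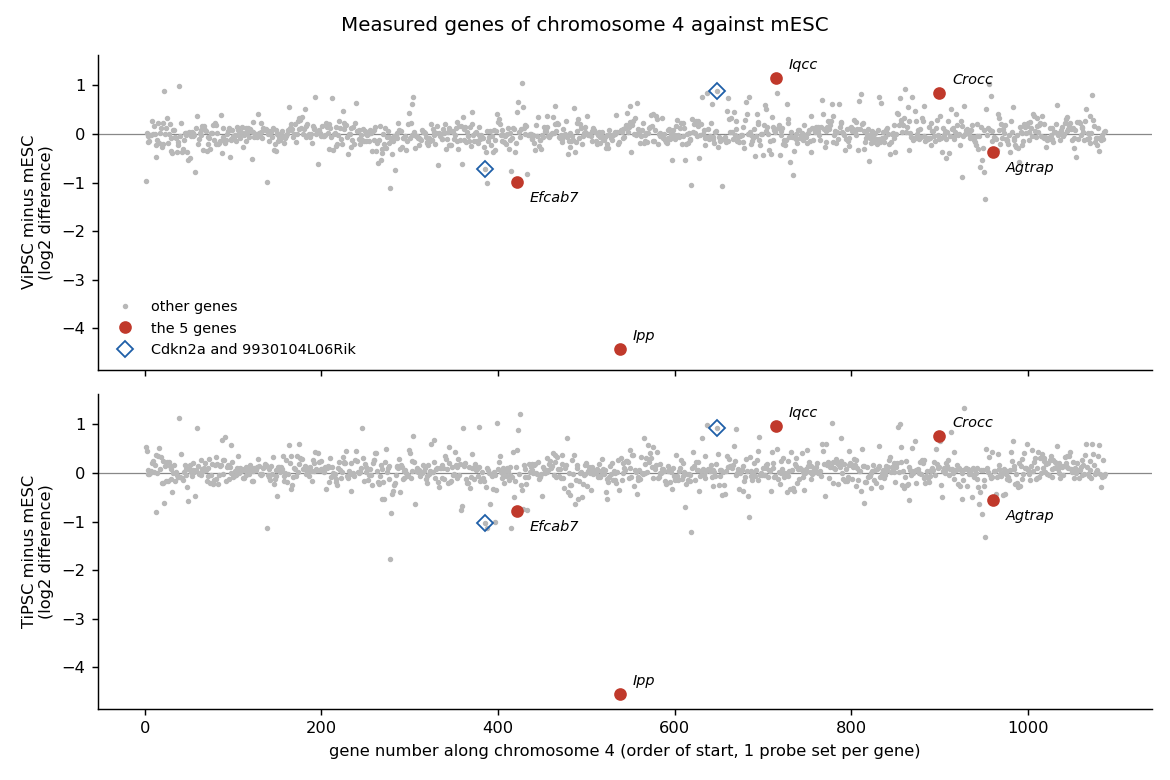
Log2 difference from mESC of ViPSC (upper panel) and TiPSC (lower panel) for 1087 measured genes of chromosome 4, by their order along the chromosome (x axis, gene number); filled circles are the 5 genes, open diamonds are Cdkn2a and 9930104L06Rik. Ipp lies at −4.43 and −4.56, below every other gene of the chromosome, and the genes beside it lie near 0.

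The pattern nearest to that of Ipp over the 9 pluripotent arrays was that of 1445670_at, a probe set with no gene symbol in the annotation used, and among probe sets with a symbol that of maternally expressed non-coding RNAs of chromosome 12. Likeness was the root mean square difference of log2 values, each probe set centred on its own mean, so that nearest probe sets necessarily share the difference between induced and mESC arrays. For Ipp this was 0.461 for 1445670_at, 0.746 for Rian (1452899_at), 0.935 for Meg3 (1439380_x_at) and 1.07 for a further Rian probe set (1427580_a_at), beside a spread of Ipp about its own mean of 2.13. Probe set 1445670_at was at 3.91, 3.65 and 3.72 in ViPSC, 3.50, 3.48 and 3.34 in TiPSC, 3.35 in VM, 3.73 in TTF, and 7.18, 6.97 and 7.70 in mESC. Its source arrays were as low as its induced arrays, and both were also low for Ipp. Rian 1452899_at was at 5.69, 5.63 and 5.58 in ViPSC, 5.94, 5.72 and 5.20 in TiPSC, 8.52 in VM, 12.27 in TTF, and 10.16, 8.49 and 8.99 in mESC. Meg3 1439380_x_at was at 6.17, 6.79 and 6.53 in ViPSC, 7.16, 6.63 and 6.24 in TiPSC, 9.61 in VM, 12.44 in TTF, and 10.51, 8.97 and 9.35 in mESC. For Rian and Meg3 the source arrays went the other way: both RNAs were highest in the fibroblasts, where Ipp and 1445670_at were low. Within mESC, array 1 was the lowest of the 3 for Ipp and the highest for Rian and Meg3. Over all probe sets mESC 1 correlated at 0.992 to 0.993 with the induced arrays, and mESC 2 and 3 at 0.984 to 0.990; mESC 1 correlated at 0.989 with mESC 2 and 0.986 with mESC 3, lower than with any induced array, and mESC 2 at 0.991 with mESC 3, across probe sets that are not independent.

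**Figure D4:**
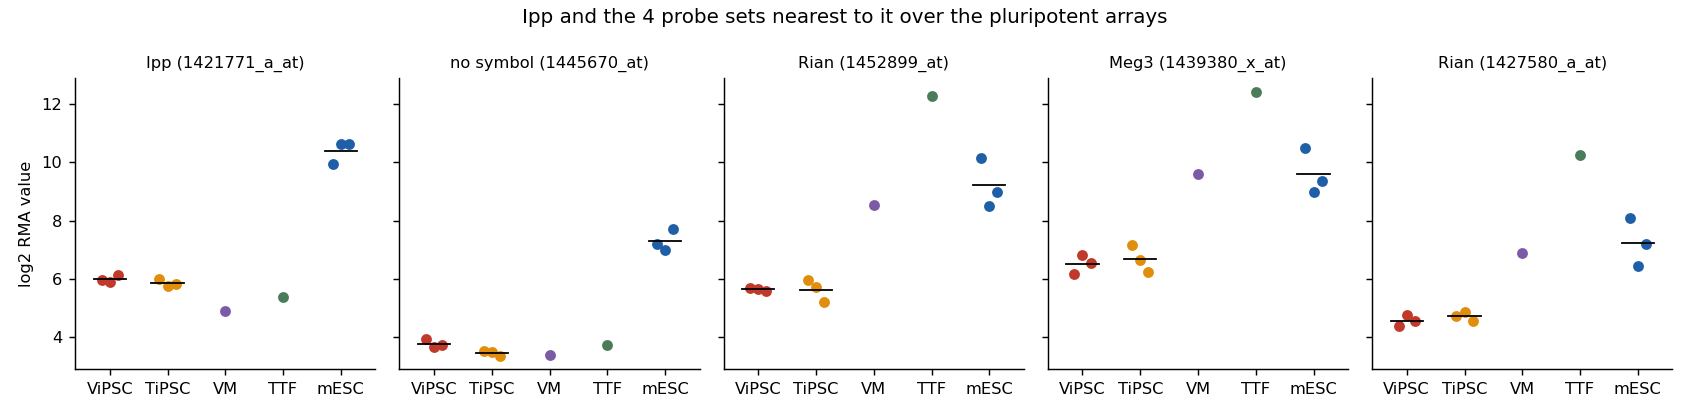
Log2 RMA values (y axis, which does not start at 0) of Ipp and of the 4 probe sets nearest to it over the 9 pluripotent arrays, in ViPSC, TiPSC, VM, TTF and mESC; points are arrays and lines are means of 3 arrays. Ipp is at 4.89 in VM and 5.38 in TTF, and 1445670_at (no symbol) at 3.35 and 3.73, while Rian (1452899_at) is at 8.52 and 12.27 there.

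The other members had near matches of smaller size, given here for probe sets with a symbol; 1 without, 1428833_at, was nearest to Agtrap 1422965_at (0.0878). Those of Efcab7 were Meg3 (1429257_at, 0.164) and Mirg (0.168), also of chromosome 12, and Bcat2 (0.171), beside a spread of Efcab7 of 0.449. Those of Agtrap 1422965_at were Szrd1 (0.0886), which lies 3 measured genes from Crocc, Dmxl2 (0.0912) and Ate1 (0.0951), beside 0.239. Crocc was nearest to Cd47 (0.0917), Cox7c (0.111) and Mnd1 (0.119), beside 0.385, and Iqcc to Pde7a (0.174), Sec23ip (0.181) and Anxa4 (0.187), beside 0.511. Of the 15 nearest probe sets with a symbol 1, that of Szrd1, was on chromosome 4, which holds 1087 of the 18031 genes with a chromosome.

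Genes of the members' pathways or families were counted in 5 lists of 55 measured genes. Against mESC 0 passed in both induced groups in the same direction by limma, against 0.0770% of all genes, and 4 had an unadjusted p under 0.05 in both, against 4.77%. Between ViPSC and TiPSC, 2.88% of all genes were higher and 2.04% lower in ViPSC. Of 12 measured genes of the EVC complex and of the wider Hedgehog pathway and cilium, listed for Efcab7, 0 rose and 2 fell in ViPSC. These were Gli2, a Hedgehog transcription factor (−1.62 ± 0.32, adjusted p = 0.0280), and Gpr161, a ciliary receptor that restrains the pathway (−0.66 ± 0.14, adjusted p = 0.0307). The list's median difference was −0.42, against −0.035 over all genes, and 9 of the 12 had an unadjusted p under 0.05, against 21.2% of all genes. Of 10 centrosome linker and rootlet genes around Crocc, 1 rose, Cep68, a linker protein on chromosome 11 (1.20 ± 0.14, adjusted p = 0.00337; list median 0.036), and 0 fell; 3 of the 10 had an unadjusted p under 0.05. Of 9 renin-angiotensin genes around Agtrap 0 passed in either direction by limma, and 0 had an unadjusted p under 0.05 (median 0.039). Of 16 kelch and cullin 3 genes, relatives of Ipp, 1 rose and 2 fell (median −0.028): Klhl22 was higher (0.51 ± 0.11, adjusted p = 0.0413), and Klhl9, on chromosome 4 (−0.95 ± 0.17, adjusted p = 0.0206), and Klhl7 (−0.63 ± 0.098, adjusted p = 0.0117) were lower, and 5 of the 16 had an unadjusted p under 0.05. Of 9 IQ motif genes 1 rose, Iqcg, a gene of sperm flagella (1.04 ± 0.14, adjusted p = 0.00763; median 0.081), and 0 fell; 4 of the 9 had an unadjusted p under 0.05. All adjusted p are limma's over all probe sets, with SE and n = 3 arrays per group.

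The labels matched their markers. The mean log2 level of 8 pluripotency genes was 12.04 to 12.11 in ViPSC, 12.07 to 12.26 in TiPSC, 4.66 in VM, 4.55 in TTF and 12.26 to 12.41 in mESC. That of 8 cardiomyocyte genes was 13.36 in VM and 3.85 in TTF, and at most 4.63 in any pluripotent array. The VM array also held 6 endothelial genes (mean 10.22, with Cdh5 at 11.61, against 3.91 for the list in TTF), so its values of the members come from mixed cells. The mean of 10 fibroblast genes in VM was 9.78. Of these, Thy1 (5.55) and Fn1 (11.46) were lower in VM than the means of ViPSC, TiPSC and mESC, and the others were higher. The fibroblast and feeder list, 10 of 10 measured, was at 6.66 to 6.78 in ViPSC, 6.89 to 7.40 in TiPSC, 12.63 in TTF and 6.49 to 6.78 in mESC. Col1a1 was at 6.33 ± 0.18 in ViPSC, 6.95 ± 0.27 in TiPSC and 6.23 ± 0.23 in mESC (SD, n = 3), against 13.33 in TTF. ViPSC and mESC arrays overlapped in the level of this list and all TiPSC arrays lay above them. Of its 10 genes 0 passed between ViPSC and TiPSC in either direction, and 0 passed against mESC in either induced group (limma). The blood and macrophage list, with 5 of 6 genes measured, was at 6.07 to 6.39 in ViPSC, 5.61 to 5.73 in TiPSC and 5.65 to 5.71 in mESC. In this list 2 of 5 genes passed as higher in ViPSC than in TiPSC and 0 as lower. Cd68, of macrophage lysosomes, was at 8.90 ± 0.054 in ViPSC, 7.54 ± 0.58 in TiPSC and 7.67 ± 0.39 in mESC (ViPSC minus TiPSC 1.37, adjusted p = 0.0276). Csf1r, the receptor of macrophage colony-stimulating factor, was at 6.69 ± 0.45 in ViPSC, 5.16 ± 0.50 in TiPSC and 5.60 ± 0.31 in mESC (1.54, adjusted p = 0.0230). Ptprc, the pan-leukocyte antigen, was at 3.69 ± 0.11 in ViPSC, 3.58 ± 0.16 in TiPSC and 3.52 ± 0.11 in mESC. Lyz2 and Tyrobp went the other way, lower in ViPSC than in TiPSC (−0.38 and −0.040; adjusted p = 0.375 and 0.903, limma). Of the endothelial list 1 of 6 was higher in ViPSC, Pecam1, an adhesion molecule that pluripotent cells also carry, at 8.25 ± 0.072 in ViPSC, 6.92 ± 0.31 in TiPSC and 7.73 ± 0.43 in mESC (1.33, adjusted p = 0.0126; limma, SD of 3 arrays). The part of other cells in the members' differences was not tested.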

How the data were processed

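RMA was applied by the authors to Affymetrix mouse arrays, per the submitters' processing notes; its version and the annotation used are not given in the sources used here. The deposited values are log2 expression values, already normalized between 11 arrays. No detection calls were used, and RMA compresses differences near background, so low values have little room to differ; the number of arrays limits the precision.

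The 64 control probe sets were left out. Symbols came from the platform annotation: 34945 probe sets had 1 symbol, 932 several and 9160 none here. Chromosome and gene order came from a RefSeq table (GRCm38.p6) by Entrez identifier, for 34741 of them. The 45037 probe sets were fitted with limma 3.58.1 in R 4.3.3, with a mean for each of ViPSC, TiPSC and mESC, a shared spread over 9 arrays and eBayes. Adjusted p is Benjamini-Hochberg, with a threshold of 0.05. Counts of genes use, of each gene, the probe set of highest average level in the 11 arrays. Errors are SD of arrays for levels and SE of the fit for differences. The fit was tested on simulated data. Same-numbered replicates of different groups did not deviate together (correlations −0.26 to 0.067 over 9 pairs), so no pairing was used.

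The members, gene lists and rules for named genes were chosen with earlier results of these data known. Named were all members' probe sets, the 3 nearest probe sets with 1 symbol per member, neighbours and other chromosome 4 genes called against mESC, listed genes called between ViPSC and TiPSC (up to 4 a list) and markers; neighbours called without mESC 1 or between the induced groups, those adjacent to or farthest from a member and genes just outside the threshold and the nearest probe sets with no symbol were added after their values were seen. Alternatives covered filtering, probe set choice, scaling, spread, arrays in the fit, a replicate block and leaving out each array.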

Additional observations from a re-analysis of the deposited data

How the results depend on the processing

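Between ViPSC and TiPSC, the 6 probe sets of the members stayed outside the threshold in 89 of 89 values under the alternatives, with a lowest adjusted p of 0.205 (limma). They also kept their direction in all of these. But only median centring and leaving out an induced array can change that difference, and the other alternatives repeat it by construction. Ipp ranged from 0.061 to 0.19 there, and its differences from mESC from −4.66 to −4.31 in ViPSC and from −4.78 to −4.44 in TiPSC. Of 120 differences of members from mESC under other settings, 119 kept their sign. Agtrap 1460596_at in TiPSC, at −0.050, ranged from −0.12 to 0.038 without 1 array, the last without mESC 1. The settings here were median centring and leaving out each array in turn. Leaving out an array of neither group changes nothing, and leaving out 1 of 3 moves a mean by less than 1 SD. So the count of 119 is no test of stability. Counts over all probe sets were less stable. The 1761 probe sets past the threshold between ViPSC and TiPSC became 1024 with 1 probe set per gene, 4342 with the arrays of the 2 groups only and 977 with the replicate block. Without 1 array they were 321 (ViPSC 3) to 3086 (mESC 1), with 424 and 451 without ViPSC 1 and 2, 383 and 697 without TiPSC 1 and 2, and 2764 without mESC 3. The 27 probe sets past it against mESC in both induced groups became 5 with separate fits of 2 groups and 6 with the replicate block, and ranged from 5 (without TiPSC 2) to 2021 (without mESC 1), with 13 without mESC 2, 10 without ViPSC 1 or TiPSC 1, and 7 and 8 without ViPSC 2 and 3. Of these called probe sets, 6 had both source arrays on the induced side, with a range of 3 (without any 1 ViPSC array or TiPSC 2) to 934 without mESC 1, which is 46.2% of 2021. The neighbours called in both numbered 0 with 5, 10 or 20 genes on either side and 0 to 9 without 1 array, the 9 without mESC 1. The cause of these moves was not tested beyond the change of arrays itself. The replicate block moved no member across the threshold (Ipp 0.13, adjusted p = 0.791, limma), and same-numbered arrays share only a number: 3 of 9 correlated best with their own number.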
